A study of Homo sapiens with 12 samples.

Results

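The 9 genes described here handle heme and the iron it carries, and they were taken from a table of 57773 genes. They are the heme oxygenases HMOX1 and HMOX2, the repressor BACH1, the heme transporter SLC48A1, the reductase POR, the biliverdin reductases BLVRA and BLVRB, and the ferritin chains FTL and FTH1. The list was put together by function and was also chosen by measured values, the differences of HMOX1, SLC48A1, POR and BACH1 between siELOVL2 and control cells, which were already known. Values of the 9 genes in that comparison are therefore given as a description, with no test.

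Transcript levels came from RNA sequencing of A498, a human renal cancer cell line, in 12 libraries with 3 biological replicates of each of 4 treatments. The cells had been transfected with siRNAs against ELOVL2 and ELOVL5 together (the double knockdown), with the ELOVL2 siRNA alone (siELOVL2), with the ELOVL5 siRNA alone (siELOVL5), or with a control siRNA. Both target genes encode elongases of polyunsaturated fatty acids. The sources used here do not state the siRNA sequences and doses or the time to harvest. How many siRNAs were used per gene is therefore not known, and no rescue can be set beside these values. All libraries carry the same batch label. The deposited values are quantile-normalized read counts, called normalized counts below, and a fold change is a difference in log2(normalized count + 1).

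Heme oxygenase opens the heme ring and releases biliverdin, carbon monoxide and iron, using electrons that POR passes on from NADPH. HMOX1 is the inducible form of the enzyme and HMOX2 the constitutive form. The biliverdin reductases turn biliverdin into bilirubin, and ferritin, a shell of FTH1 and FTL chains, stores the released iron. SLC48A1 (HRG1) carries heme out of endosomes and lysosomes into the cytosol. BACH1 pairs with small MAF proteins and represses HMOX1 and both ferritin genes until heme binds it, while NRF2 activates many of the same genes.

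The siRNAs lowered their targets. ELOVL2 was at 8.87% of its control mean in double-knockdown cells and at 9.32% in siELOVL2 cells, and ELOVL5 was at 9.03% in double-knockdown cells and at 7.48% in siELOVL5 cells. Estimated depths lay between 6.70 and 10.7 M reads per library. The fewest reads behind any value of the 9 genes were an estimated 225, for SLC48A1 in control replicate 1, which gives a counting error of 6.67%. Of 11 kidney epithelial and clear cell carcinoma markers, 10 averaged at least 10 normalized counts over the 12 libraries, and NDUFA4L2 did not. CA9, counted among the 10, ranged from 2.08 to 29.1 and was below 10 in some libraries. The markers summed to 26618 to 31276 normalized counts in double-knockdown, 28905 to 29969 in siELOVL2, 29262 to 33342 in siELOVL5 and 34956 to 35462 in control libraries. That sum was lower in all libraries with an ELOVL siRNA than in the controls, and its part in the results below was not tested. Within it, VIM stood at 13311 to 15769 in double-knockdown, 13122 to 17039 in siELOVL2, 14339 to 20762 in siELOVL5 and 17859 to 24170.4 in control libraries. KRT8 did not share that order and stood at 6613 to 8969 in double-knockdown, 6587 to 8547 in siELOVL2, 5284 to 5599 in siELOVL5 and 5179 to 7685 in control libraries. Among markers of other cells rich in heme and iron machinery, HBA1, HBA2 and HBB (erythroid), VSIG4 (macrophage) and HP (liver) were listed at 0 in every library. The 6 erythroid markers summed to at most 1.92 normalized counts, the 6 macrophage markers to at most 17.1 and the 6 liver markers to at most 21.3. In such bulk samples, fewer cells of a type and less RNA per cell cannot be told apart. siELOVL5 replicate 3 stood apart from the other libraries in BACH1 and in several stress-related genes given below, so values of BACH1 are also given without it.

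**Figure D1:**
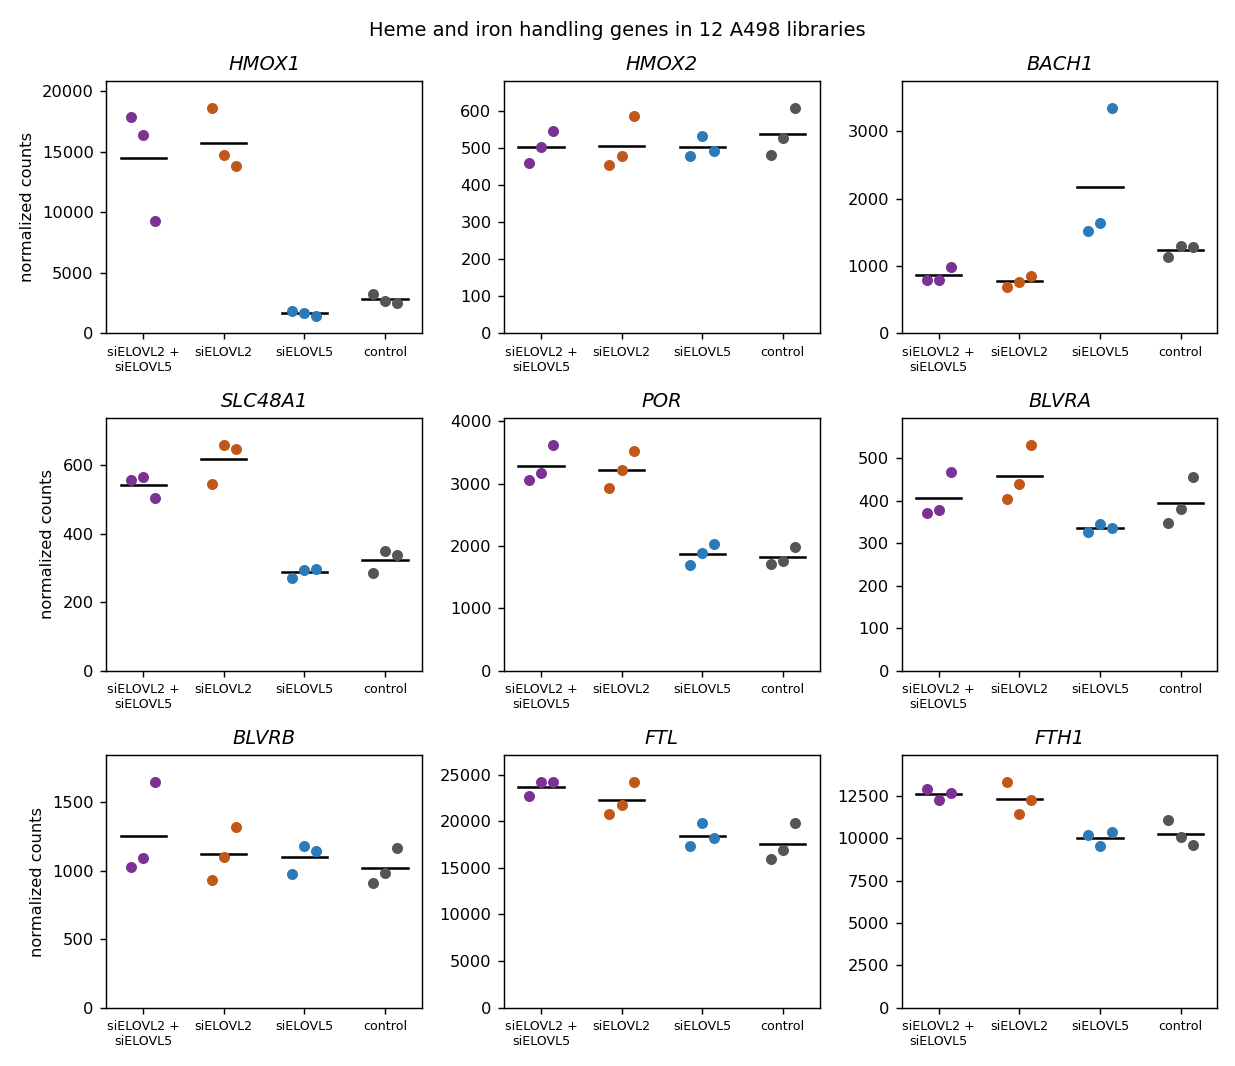
Normalized counts (vertical axis, from 0) of the 9 genes in each of 12 A498 libraries, with 1 point per library in replicate order and a bar at the group mean. HMOX1, SLC48A1 and POR and, by less, FTL and FTH1 lie higher in every library with the ELOVL2 siRNA than in every library without it. BACH1 lies lower there, and HMOX2 overlaps in all 4 groups.

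HMOX1 was the gene of the set that differed most between treatments. It stood at 17859, 16379 and 9307 normalized counts in double-knockdown replicates 1, 2 and 3, and at 18624, 14723 and 13851 in siELOVL2 replicates. It stood at 1883, 1669 and 1441 in siELOVL5 replicates and at 3298, 2655 and 2508 in control replicates. Every library with the ELOVL2 siRNA (6 libraries, 9307 to 18624) lay above every library without it (6 libraries, 1441 to 3298). By group mean the order was siELOVL2 (15733 ± 2542, SD, n = 3), double knockdown (14515 ± 4571), control (2820.3 ± 421) and siELOVL5 (1664 ± 221). The siELOVL2 and double-knockdown libraries overlapped in this order, while double knockdown and control did not overlap, and neither did control and siELOVL5.

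HMOX1 rose in cells given both siRNAs against cells given the ELOVL5 siRNA alone. That comparison, double knockdown against siELOVL5, shares no library with the comparison that was known when the genes were chosen. It concerns the same ELOVL2 siRNA, with which HMOX1 was already known to differ, and its spread was estimated over all 12 libraries. HMOX1 averaged 14515 in double-knockdown cells and 1664 in siELOVL5 cells, an 8.44-fold difference (limma log2 fold change 3.08, SE 0.21, adjusted p = 1.07e-05, higher in 3 of 3 libraries). Across all 18648 genes tested, 1.36% were called higher and 1.41% lower at an adjusted p under 0.05 in this comparison. Double knockdown against control, which shares the control libraries with the earlier comparison, gave 2.32 on the log2 scale for HMOX1 (limma SE 0.21, adjusted p = 0.000114), with 2.15% of all genes called higher and 2.27% lower (825 genes, and 1779 without siELOVL5 replicate 3). Both calls held in all 12 fits that each left out 1 library and in all 9 other settings. In siELOVL2 against control cells the log2 fold change was 2.48 (SE 0.21), given with no test. There, 0.547% of all tested genes were called higher and 0.815% lower (254 genes, and 829 without siELOVL5 replicate 3), and 22.4% had groups that did not overlap.

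HMOX1 was not higher with the ELOVL5 siRNA alone. HMOX1 averaged 1664 in siELOVL5 cells and 2820.3 in control cells, with no overlap between the libraries, but the difference was not past the threshold (limma log2 fold change -0.76, 95% interval -1.21 to -0.30, adjusted p = 0.269). That outcome depended on the fit. With replicate number added as a block it was called (limma adjusted p = 0.0160), as were 99 of all genes, though the numbers were not taken to pair the libraries. The share of all tested genes whose siELOVL5 and control libraries did not overlap was 13.1%, and 0.139% were called in either direction. Without that block none of the 9 genes was called there, and 2 of them, HMOX1 and BACH1, had an unadjusted p under 0.05, as did 9.56% of all tested genes. HMOX1 had a log2 fold change of -0.16 (95% interval -0.61 to 0.29, limma adjusted p = 1) in double-knockdown against siELOVL2 cells, a comparison that shares the siELOVL2 libraries with the earlier comparison. None of the 9 genes was called in that comparison, none had an unadjusted p under 0.05, and all 9 had overlapping libraries. Of all tested genes, 0.059% were called, 3.60% had an unadjusted p under 0.05 and 8.86% did not overlap. Double-knockdown replicate 3 was the lowest of the 6 libraries with the ELOVL2 siRNA, and the sign of that small difference depended on it (0.13 without that library).

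HMOX1 held a larger share of the heme oxygenase transcripts in the libraries with the ELOVL2 siRNA. HMOX2 averaged 502 ± 42.9 normalized counts in double-knockdown, 507 ± 68.9 in siELOVL2, 502 ± 28.2 in siELOVL5 and 538.5 ± 64.3 in control cells (SD, n = 3 each). All groups of HMOX2 overlapped, and its log2 fold change in double-knockdown against siELOVL5 cells was 0.00 (95% interval -0.25 to 0.25, limma adjusted p = 1). Divided by transcript length, HMOX1 made up 95.3% to 97.9% of the heme oxygenase signal in double-knockdown libraries and 96.5% to 98.0% in siELOVL2 libraries. It made up 77.5% to 82.2% in siELOVL5 libraries and 82.9% to 89.0% in control libraries. HMOX1 took 0.109% to 0.209% of all normalized counts in double-knockdown and 0.162% to 0.218% in siELOVL2 libraries, against 0.0169% to 0.0221% in siELOVL5 and 0.0294% to 0.0387% in control libraries. Ranked by level among all genes, HMOX1 was at places 15, 20 and 73 in the double-knockdown libraries and at places 13, 29 and 36 in the siELOVL2 libraries. Its places were 921, 1077 and 1297 in the siELOVL5 libraries and 413, 571 and 617 in the control libraries.

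BACH1, the repressor of HMOX1, was lower in the libraries with the ELOVL2 siRNA. It stood at 796, 795 and 989.9 normalized counts in double-knockdown replicates 1, 2 and 3, and at 696, 768 and 853 in siELOVL2 replicates. It stood at 1515, 1643 and 3345 in siELOVL5 replicates and at 1132, 1298 and 1289 in control replicates. The 6 libraries with the ELOVL2 siRNA (696 to 989.9) all lay below the 6 without it (1132 to 3345), and siELOVL5 replicate 3 lay far above all others. By group mean the order was siELOVL5 (2168 ± 1021, SD, n = 3), control (1239.7 ± 93.7), double knockdown (860.4 ± 112) and siELOVL2 (772 ± 78.5). Only siELOVL2 and double knockdown overlapped among neighbours in this order.

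BACH1 fell in double-knockdown against siELOVL5 cells (limma log2 fold change -1.24, SE 0.23, adjusted p = 0.0132, lower in 3 of 3 libraries). Without siELOVL5 replicate 3 the log2 fold change was -0.88 (adjusted p = 0.00122). The call was lost without double-knockdown replicate 1 (adjusted p = 0.0558) or replicate 2 (0.0638), without the intensity trend (0.0619) and when only these groups were fitted (0.202). Double knockdown against control shares the control libraries with the earlier comparison. In it BACH1 had a log2 fold change of -0.53 and was not called (limma adjusted p = 0.226), though the libraries did not overlap. It was called there without siELOVL5 replicate 3 (adjusted p = 0.00638), which enters that value only through the shared estimate of the spread. With estimated library weights it was called too (-0.61, adjusted p = 0.00904), as it was when only these groups were fitted (0.0499). In siELOVL5 against control cells the log2 fold change was 0.71 (95% interval 0.22 to 1.20, limma adjusted p = 0.344), and 0.35 without siELOVL5 replicate 3. It was 0.15 in double-knockdown against siELOVL2 cells (95% interval -0.34 to 0.64, limma adjusted p = 1). In siELOVL2 against control cells the value, with no test, was -0.68 (SE 0.23).

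**Figure D2:**
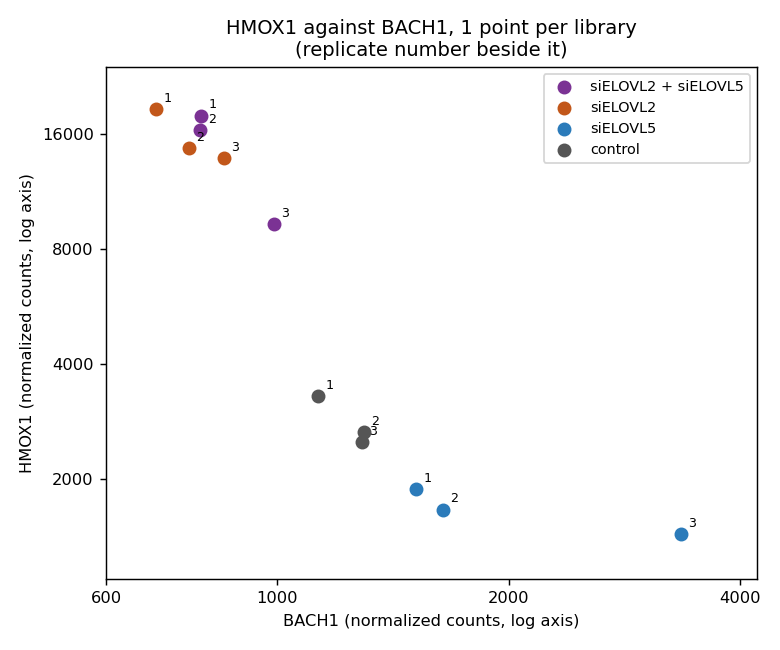
HMOX1 against BACH1 in normalized counts, both on log2-spaced axes, with 1 point per library, coloured by treatment and numbered by replicate. The 6 libraries with the ELOVL2 siRNA sit at the upper left (HMOX1 9307 to 18624, BACH1 696 to 989.9), the controls lie below them, and the siELOVL5 libraries sit at the lower right.

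Set side by side in each library, the levels of the pair also differed within groups. Double-knockdown replicate 3 held the highest BACH1 (989.9) and the lowest HMOX1 (9307) of its group. siELOVL2 replicate 1 held the lowest BACH1 (696) and the highest HMOX1 (18624) of all 12 libraries, and siELOVL5 replicate 3 held the highest BACH1 (3345) and the lowest HMOX1 (1441). HMOX1 was also highest in replicate 1 and lowest in replicate 3 of all 4 groups, and POR was lowest in replicate 1 and highest in replicate 3 of all 4. These pairs are described only, since the libraries fall into separate groups of HMOX1 levels. The departure from additivity of both siRNAs (the double-knockdown value less those of siELOVL2 and siELOVL5, plus that of control, on the log2 scale, with no test) was 0.60 (SE 0.30) for HMOX1 and -0.56 (SE 0.32) for BACH1. For BACH1 it was -0.20 without siELOVL5 replicate 3, and for HMOX1 it ranged over the fits without 1 library between 0.42 (without double-knockdown replicate 1) and 0.89 (without double-knockdown replicate 3). For the other 7 genes it lay between -0.01 and 0.09 with all libraries and between -0.18 and 0.20 without 1 library.

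BACH1 is the member whose 3′ UTR holds a word that had marked falling transcripts in siELOVL2 cells. That word, CACGATA, is 1 of 3 related 7-base words, with ACGAATA as the second and ACGATAA as the third, picked in an earlier scan of these same data, so a match describes the transcript and is no independent evidence. The site in the BACH1 3′ UTR (GENCODE 29, chromosome 21, base 4362 of a transcript of 5769 bases, 1905 bases after the stop codon) is shown with the word in capitals:
BACH1 3′ UTR site: aatttcagcttCACGATAtaaaataatat
CACGATA occurs in the 3′ UTR of 1.096% of 13965 genes, and any of the 3 words in 3.537%. The 3′ UTRs of the other 8 members hold none of the 3 words, and other parts of the transcripts were not searched. The word GAGAGGA, picked the same way for the ELOVL5 siRNA, occurs in the 3′ UTR of 15.29% of genes and in that of none of the 9 members.

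The window just before the first BACH1 start site is shown because BACH1 is the regulator of the set. It comes from RefSeq (GRCh38.p14, chr21:29298822-29298921, plus strand), and the capitals mark TGAGTCA, the letters that AP-1 factors can bind:
BACH1 promoter: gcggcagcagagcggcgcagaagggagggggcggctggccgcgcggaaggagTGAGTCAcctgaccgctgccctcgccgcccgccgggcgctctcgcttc
The first base of TGAGTCA lies 48 bases before the start site. The motifs were searched on both strands from 250 bases before to 50 after each start, in the 9 windows found for 6 of the 9 members. Among these 9 windows TGAGTCA stood in the window shown, and it stood in 4.949% of all 35116 windows in the RefSeq table. TGACNNNGC, the core of the antioxidant response element, can overlap TGAGTCA read on the other strand. It stood in 0 of the 9 windows, the window shown included, and in 13.35% of all. CACGTG, the E-box, stood in 1 HMOX2 window and in 7.256% of all. A match describes letters only and no binding was measured.

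SLC48A1 and POR, which supply heme oxygenase with heme and electrons, were higher in double-knockdown cells than in siELOVL5 cells and than in control cells. For both genes the comparison with control shares the control libraries with the earlier comparison, in which they were already known to differ. SLC48A1 stood at 555, 566 and 505 normalized counts in double-knockdown replicates and at 545.5, 658 and 647 in siELOVL2 replicates. It stood at 269, 294 and 297 in siELOVL5 replicates and at 285, 349 and 336 in control replicates. The libraries with and without the ELOVL2 siRNA did not overlap. SLC48A1 was higher in double-knockdown than in siELOVL5 cells (limma log2 fold change 0.91, SE 0.10, adjusted p = 0.000531) and than in control cells (0.75, limma adjusted p = 0.00174). It did not pass the threshold with the ELOVL5 siRNA alone against control (-0.17, 95% interval -0.39 to 0.05, limma adjusted p = 0.620) or in double-knockdown against siELOVL2 cells (-0.18, 95% interval -0.41 to 0.04).

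POR stood at 3053, 3169 and 3614 normalized counts in double-knockdown replicates and at 2929, 3209.6 and 3518 in siELOVL2 replicates. It stood at 1696, 1888 and 2029 in siELOVL5 replicates and at 1712, 1759 and 1987 in control replicates. All 6 libraries with the ELOVL2 siRNA were above all 6 without it. POR was higher in double-knockdown than in siELOVL5 cells (limma log2 fold change 0.81, SE 0.10, adjusted p = 0.000838) and than in control cells (0.85, limma adjusted p = 0.000473). The first of these calls was lost when only these groups were fitted (adjusted p = 0.0629). In siELOVL5 against control cells POR had a value of 0.04 (95% interval -0.17 to 0.25, limma adjusted p = 0.933). In siELOVL2 against control cells the values, with no test, were 0.93 for SLC48A1 and 0.82 for POR.

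The biliverdin reductases, which act after heme oxygenase, did not pass the threshold in any tested comparison. BLVRA averaged 405 ± 54.3 normalized counts in double-knockdown, 458 ± 65.8 in siELOVL2, 336 ± 8.92 in siELOVL5 and 395 ± 56.4 in control cells (SD, n = 3 each). Its libraries did not overlap between double-knockdown cells (371 to 468) and siELOVL5 cells (326 to 344), with a log2 fold change of 0.26 (95% interval -0.02 to 0.54, limma adjusted p = 0.318). BLVRB averaged 1255 ± 340 in double-knockdown, 1119 ± 194 in siELOVL2, 1101 ± 107 in siELOVL5 and 1018 ± 131 in control cells. Double-knockdown replicate 3 was the highest BLVRB library (1645), and all groups of BLVRB overlapped. Its log2 fold change in double-knockdown against siELOVL5 cells was 0.16 (95% interval -0.21 to 0.53, limma adjusted p = 0.700).

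Per kilobase the ferritin chains were the most abundant transcripts of the set, and their differences were small. In normalized counts HMOX1 averaged more than FTH1 in double-knockdown and siELOVL2 cells. FTL stood at 22738, 24170.4 and 24170.4 normalized counts in double-knockdown replicates and at 20762, 21782.5 and 24170.4 in siELOVL2 replicates. It stood at 17382, 19790.1 and 18195 in siELOVL5 replicates and at 15959, 16901 and 19790.1 in control replicates. Identical values mean that FTL held the same rank in those libraries, since quantile normalization gives 1 value to each rank. FTL was higher in double-knockdown than in control cells (limma log2 fold change 0.44, SE 0.10, adjusted p = 0.0260) but was not called against siELOVL5 cells (0.36, 95% interval 0.15 to 0.58, limma adjusted p = 0.0706). It was called against siELOVL5 cells with library weights (adjusted p = 0.0345) and with a filter of at least 10 normalized counts in at least 3 libraries (0.0383). The call against control was lost without control replicate 1 (adjusted p = 0.118) or 2 (0.112) and without double-knockdown replicate 1 (0.0584), 2 (0.0899) or 3 (0.0611). It was lost too with no filter (0.0523), without the trend (0.0678) and when only these groups were fitted (0.0584).

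FTH1 stood at 12944, 12287 and 12706 normalized counts in double-knockdown replicates and at 13311, 11460.2 and 12287 in siELOVL2 replicates. It stood at 10213, 9535 and 10353 in siELOVL5 replicates and at 11070.4, 10102.5 and 9636 in control replicates. The libraries with the ELOVL2 siRNA lay above those without it, for FTH1 (11460.2 and up, against 11070.4 at most) as for FTL (20762 and up, against 19790.1 at most). FTH1 passed the threshold narrowly in double-knockdown against siELOVL5 cells (limma log2 fold change 0.33, SE 0.08, adjusted p = 0.0487). That call was kept in 2 of the 12 fits that left out 1 library, those without siELOVL2 replicate 1 (adjusted p = 0.0490) and without siELOVL5 replicate 3 (0.0291). It was lost without any of the other 10 libraries (adjusted p 0.0558 to 0.134), with a pseudocount of 5 (0.0547), with no filter (0.0787), without the trend (0.115), with only these groups (0.217) and with TMM scaling (0.0650). Against control cells FTH1 was not called (0.30, limma adjusted p = 0.0556). It was called there without siELOVL5 replicate 3 (adjusted p = 0.0202), with library weights (0.0146) and with the filter of at least 10 normalized counts (0.0283). In siELOVL2 against control cells the values, with no test, were 0.34 for FTL and 0.27 for FTH1. FTL and FTH1 together made up 0.419% to 0.433% of all normalized counts in double-knockdown, 0.390% to 0.428% in siELOVL2, 0.324% to 0.344% in siELOVL5 and 0.317% to 0.345% in control libraries. Many processed pseudogenes resemble the ferritin genes. The rows of 25 FTH1 and 16 FTL pseudogenes were at 0 in every library, so how reads shared between copies were assigned is not visible in the table.

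The ferritin transcripts also share the element through which iron regulatory proteins block their translation when iron is low. The iron-responsive element of each 5′ UTR (GENCODE 29) is shown with its 6-base loop in capitals, at base 47 of the FTL transcript on chromosome 19 and at base 71 of the FTH1 transcript on chromosome 11:
FTL 5′ UTR: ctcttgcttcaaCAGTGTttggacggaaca
FTH1 5′ UTR: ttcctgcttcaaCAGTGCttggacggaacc
The windows are identical at 26 of 30 bases. The search was for a C, any 5 bases and CAGTGN, and 8.937% of 13651 5′ UTRs hold that pattern, among them those of 2 of the 9 members. Transcript levels do not report on translation.

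**Figure D3:**
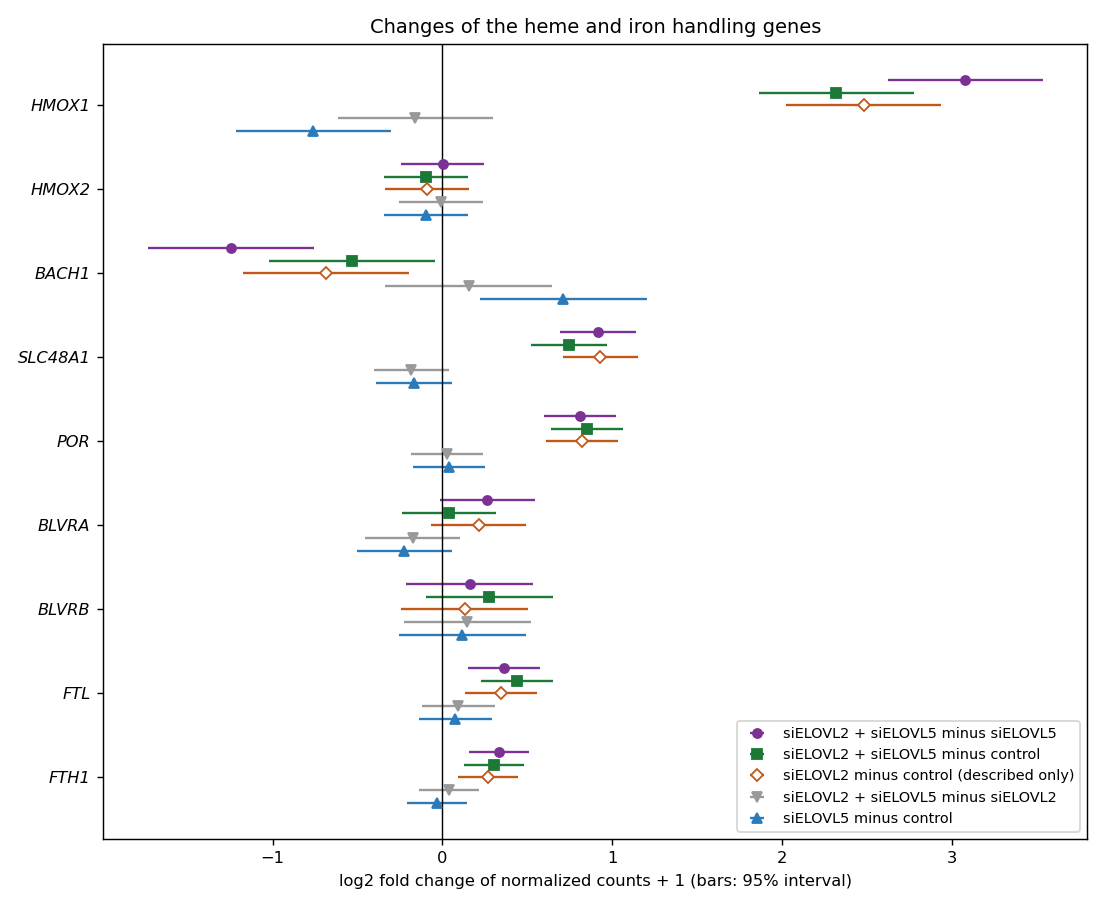
Log2 fold changes of the 9 genes (horizontal axis) in 5 comparisons, each point with its 95% interval. In HMOX1, SLC48A1, POR, FTL and FTH1 the 3 comparisons of libraries with the ELOVL2 siRNA against libraries without it lie above 0 with their intervals. In BACH1 these 3 lie below 0, while the intervals of double knockdown against siELOVL2 cross 0 for all 9 genes. Among these 3, double knockdown against control differs by both siRNAs. Open symbols mark the comparison that was known when the genes were chosen and carry no test.

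Counted together, 4 of the 9 genes were called higher (HMOX1, SLC48A1, POR and FTH1) and 1 lower (BACH1) in double-knockdown against siELOVL5 cells, with 1.36% of all genes called higher and 1.41% lower. Their libraries did not overlap for 7 of the 9, against 18.8% of all genes, and the median log2 fold change of the 9 was 0.33, against 0.02 over all tested genes. In double-knockdown against control cells, 4 were called higher (HMOX1, SLC48A1, POR and FTL) and 0 lower. Of all genes, 2.15% were called higher and 2.27% lower there. In that comparison 6 of 9 did not overlap, against 24.8% of all genes, and the median was 0.30, against 0.02. In siELOVL5 against control cells 3 of 9 did not overlap, against 13.1% of all tested genes. The median there was -0.03, against -0.004 over all tested genes. These 3 counts share libraries, and the first alone shares none with the comparison known beforehand. Its spread was still estimated over all 12 libraries. HMOX1, SLC48A1, POR and BACH1 were chosen with their differences under the same ELOVL2 siRNA known, so the counts are a description. Of the genes called in the first count, FTH1 alone was not among those, and its call was narrow. Per kilobase of transcript, the order in control cells was FTL (19989), FTH1 (8356), HMOX1 (1548), BLVRB (1166), POR (721), BLVRA (340.1), HMOX2 (251), BACH1 (215) and SLC48A1 (108). HMOX1 stood at 7967 per kilobase in double-knockdown cells, 8635 in siELOVL2 cells and 913 in siELOVL5 cells, where it ranked below BLVRB.

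Around these genes, 87 other heme and iron genes were read as 8 lists, and 83 of them could be tested. In double-knockdown against siELOVL5 cells 10 were called higher and 2 lower (12.0% and 2.41%, against 1.36% and 1.41% of all tested genes), and the median log2 fold change was 0.12, against 0.02. The 2 lower were PIR and HEPH. HEPH passed the filter only through the siELOVL5 libraries, so its call is no support. These lists, too, were drawn up with earlier results of these data known, so their counts are a description. Of the 12 genes repressed by BACH1 or induced by NRF2, 4 were called higher, NQO1, GCLM and SQSTM1 among them, and 1 lower (PIR). NQO1, a quinone reductase, averaged 10069 ± 163 normalized counts in double-knockdown and 6119 ± 262 in siELOVL5 cells (limma log2 fold change 0.72, adjusted p = 0.000615). GCLM, the modifier subunit of glutamate-cysteine ligase, averaged 6143 ± 344 in double-knockdown and 4035 ± 439 in siELOVL5 cells (0.61, limma adjusted p = 0.00301). PIR, an iron-binding nuclear protein listed as an NRF2 target, moved against the name of its list, with 199 ± 14.0 in double-knockdown and 263 ± 4.90 in siELOVL5 cells (-0.40, limma adjusted p = 0.0428). Its call was lost in 11 of 12 fits that left out 1 library, all but that without siELOVL2 replicate 1.

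Among the carriers, ABCG2, an exporter that can carry heme and porphyrins, averaged 558 ± 84.1 normalized counts in double-knockdown and 301 ± 51.6 in siELOVL5 cells (limma log2 fold change 0.89, adjusted p = 0.00625). CYB5R3, which reduces cytochrome b5, averaged 1790.4 ± 131 in double-knockdown and 1421 ± 28.9 in siELOVL5 cells (0.33, limma adjusted p = 0.0233). Its call was lost without siELOVL5 replicate 1 and without any double-knockdown replicate (adjusted p 0.0557 to 0.0699). HEPH, a copper enzyme that oxidizes exported iron, was called lower (limma adjusted p = 0.0445) but was listed at 0 in all double-knockdown libraries and at 1.00 to 3.67 in siELOVL5 libraries, too low for a fold change. HEPH reached 1 in no library outside siELOVL5, so it passed the filter only through the group where it was high. It could be tested in 9 of the 12 fits without 1 library and was called in none of them. Between double-knockdown and siELOVL5 cells, limma called 0 of 14 heme synthesis and 0 of 7 tested iron storage and sensing genes. An unadjusted limma p under 0.05 was found for 7 of the 14 and 1 of the 7, against 17.4% of all tested genes. Without overlap, 6 of the 14 were higher and 0 lower (42.9%), and 2 of the 7 were higher and 0 lower (28.6%). The share of all tested genes without overlap, in either direction, was 18.8%. The iron exporter SLC40A1 was at 0 in all double-knockdown libraries and at most at 2.08 in any library.

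Double-knockdown against control cells gave 9 of the 83 genes higher and 1 lower (10.8% and 1.20%, against 2.15% and 2.27% of all tested genes), with a median of 0.13, against 0.02. GCLM (limma log2 fold change 0.71, adjusted p = 0.000714), the iron importer SLC11A2 (0.38, adjusted p = 0.00586), the autophagy receptor SQSTM1 (0.58, adjusted p = 0.00654) and NQO1 (0.45, adjusted p = 0.00950) had the smallest p-values, and PIR was the 1 lower (-0.44, adjusted p = 0.0229). The NQO1 call was lost without control replicate 2 (adjusted p = 0.0608), and the PIR call was lost in 5 of 12 fits, those without any control replicate and without double-knockdown replicate 1 or 2. In siELOVL2 against control cells 5 were called higher and 0 lower (6.02% and 0%, against 0.547% and 0.815% of all tested genes). GCLM averaged 6320.5 ± 417 in siELOVL2 and 3764 ± 142 in control cells (0.75, limma adjusted p = 0.00103), and that call held without any 1 library. NQO1 (0.47, limma adjusted p = 0.0183), SLC11A2 (0.36, adjusted p = 0.0201) and SQSTM1 (0.51, adjusted p = 0.0271) were also higher. ABCG2, named after its value was seen, was also higher (limma log2 fold change 0.68, adjusted p = 0.0344). The calls of SLC11A2 and SQSTM1 were lost without any of the 3 control or 3 siELOVL2 replicates. That of NQO1 was lost without control replicate 1 or 2 and without any siELOVL2 replicate (adjusted p 0.0510 to 0.112). These comparisons share libraries with each other, so their counts are not independent. In siELOVL5 against control cells 0 of the 83 were called by limma, with 10 at an unadjusted p under 0.05 (12.0%, against 9.56% of all tested genes). In double-knockdown against siELOVL2 cells 0 were called by limma, with 4 at an unadjusted p under 0.05 (4.82%, against 3.60%).

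**Figure D4:**
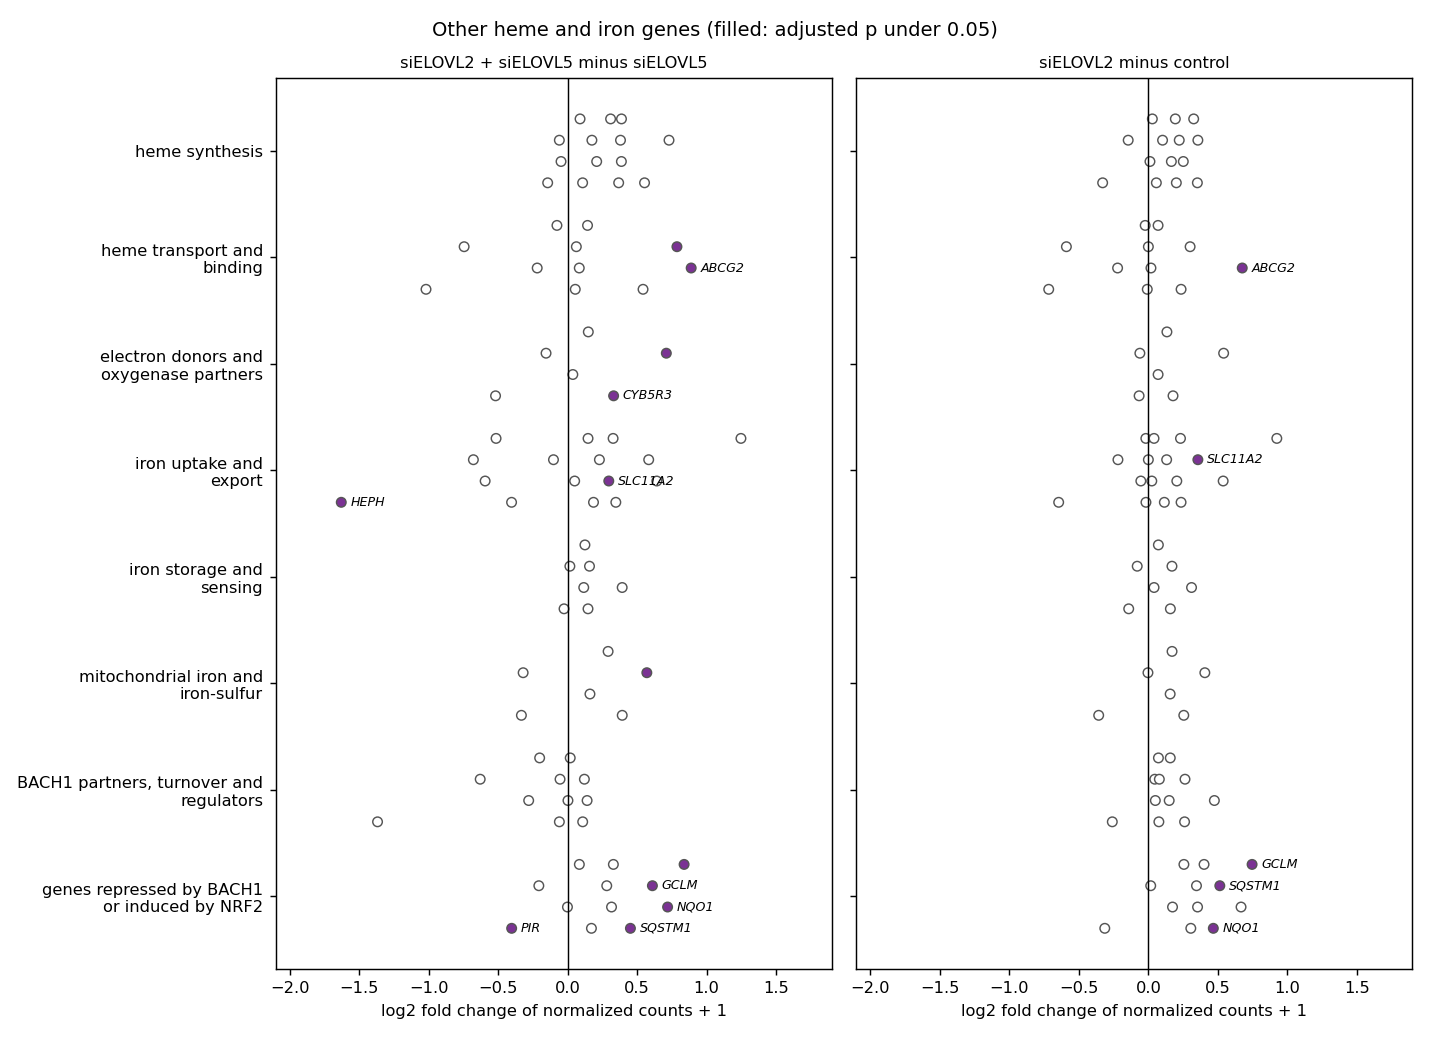
Log2 fold changes (horizontal axis) of 83 other heme and iron genes in 8 lists, for double knockdown against siELOVL5 (left) and siELOVL2 against control (right), with filled points for genes at an adjusted p under 0.05 and names for those taken by the naming rule. On the left 10 filled points lie above 0 and 2 below, and on the right 5 lie above 0. HEPH was at 0 in all double-knockdown libraries, so its position depends on the added count of 1, and it passed the filter only through the siELOVL5 libraries.

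No partner or regulator of BACH1 passed the threshold in the main fits, which hold siELOVL5 replicate 3. None of the 11 genes in that list, small MAF genes, NFE2L2 (NRF2), KEAP1 and ubiquitin ligase genes among them, was called by limma in any of the 5 comparisons. In double-knockdown against control cells 1 had an unadjusted p under 0.05 (9.09%, against 18.8% of all tested genes). In siELOVL2 against control cells 3 were higher without overlap (27.3%, against 22.4% of all tested genes in either direction). NFE2L2 stood between 2109 and 2160 normalized counts in double-knockdown libraries, between 1986 and 2248 in siELOVL2 libraries and between 2032 and 2065 in control libraries. In siELOVL5 libraries it stood at 2109, 2119 and, in replicate 3, at 3329. That library was also highest in MAFF (945, against 62.2 and 71.0 in the other siELOVL5 libraries), MAFK (483, against 130 and 139), MAFG (1291, against 634 and 701) and OSGIN1 (882, against 470.2 and 470.3). Its part in the siELOVL5 values of BACH1 is shown by the fits without it above. It also enters the spread shared by all 5 comparisons, and MAFF had an SE of 0.74 even in double-knockdown against siELOVL2 cells. The absence of calls in this list is therefore weak, and values of the list without that library are not reported here.

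The genes whose levels over the 12 libraries were most like those of HMOX1, by the root-mean-square difference of standardized log2 profiles among 9315 candidates, were ZNF469 (0.15), NSF (0.23), TMEM167A (0.25), CTSL (0.26) and POLR2E (0.27). ZNF469 averaged 411 normalized counts in double-knockdown, 418 in siELOVL2, 148 in siELOVL5 and 176 in control cells. Those most like BACH1 were TBCEL (0.22), EPT1 (0.25), ATF2 (0.26), SNX9 (0.27) and TMEM209 (0.27). TBCEL averaged 135 in double-knockdown, 117 in siELOVL2, 241 in siELOVL5 and 161 in control cells. The likeness rests on the same 4 treatments and is a description.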

How the data were processed

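RNA of 12 libraries was sequenced as paired-end 36-base reads on an Illumina NextSeq, per the labels. The deposited table holds 1 normalized signal value per gene and library. The values show that the authors quantile-normalized read counts, since every column holds the same set of values, each a multiple of 1 over 12. A level in this scale is set by a gene's rank, so a change in total RNA is not visible. Alignment, counting, annotation and genome build: not given in the sources used here. A gene is named by its symbol in the table. Depth was estimated from breaks in the order of tied low values.

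For this work log2(value + 1) was modelled by limma 3.58.1 (R 4.3.3) over 18648 genes, those that reached 1 in 3 or more of the 12 libraries. The 4 groups were fitted together with an intensity trend (8 residual degrees of freedom), Benjamini-Hochberg adjustment per comparison and a threshold of 0.05. Alternatives changed the pseudocount, filter, trend, groups fitted, library weights, replicate block and scaling (trimmed mean of M values, TMM), or left out 1 library. Departures from additivity without 1 library were added after seeing the data. The scripts were checked on simulated data. Members, lists and words were chosen with earlier results of these data known. All 9 members are named, and up to 4 called pathway genes each way per comparison with the smallest adjusted p, with further called genes of a list named after their values were seen. Some genes of the lists are counted but not reported here by name. HP, STEAP4, HAMP and FTMT did not pass the filter. Transcript lengths, UTR words and the iron-responsive elements come from 1 GENCODE 29 transcript per gene and promoters from RefSeq.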

Additional observations from a re-analysis of the deposited data

How the results depend on the processing

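HMOX1, SLC48A1 and POR kept their calls in double knockdown against siELOVL5 and against control without any 1 library. Their direction could not change in those fits, since the groups compared did not overlap. Counted without HMOX1, 4 members were called in double knockdown against siELOVL5. This count was 2 without the trend, 1 when only these groups were fitted and 2 to 4 with 1 library left out. Against control it was 3, with 5 under library weights and 2 to 5 with 1 library left out. Of the 83 pathway genes, 12 were called in double knockdown against siELOVL5, with 4 without the trend, 1 with only these groups, 19 with library weights and 4 to 12 with 1 library left out. For siELOVL2 against control 5 were called, with 1 without the trend, 17 with library weights and 1 to 9 with 1 library left out. A fit of only the groups compared has fewer libraries; the cause of the other shifts was not tested.

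Over all genes, 516 were called in double knockdown against siELOVL5, with 156 to 789 when 1 library was left out, 200 without the trend, 21 with only these groups and 1251 with library weights. Against control 825 were called, with 323 to 1779, 413 without the trend and 2241 with library weights. For siELOVL2 against control 254 were called, with 63 to 829, 101 without the trend, 412 with only these groups and 1569 with library weights. For siELOVL5 against control 26 were called, with 9 to 41, 1 with only these groups and 145 with library weights, and in double knockdown against siELOVL2 11, with 2 to 16, 21 without the trend, 1 with only these groups and 27 with library weights. Replicate numbers were not taken to pair the libraries, since same-numbered deviations had correlations of -0.00123 to 0.212, though 10 of 12 libraries correlated best with their own number. With the replicate block, HMOX1 in siELOVL5 against control stayed at -0.76 with a limma adjusted p of 0.0160. With that block 23 pathway genes were called in double knockdown against siELOVL5 and 15 in siELOVL2 against control, and, of all genes, 1368 in the first, 861 in the second, 1866 in double knockdown against control and 99 in siELOVL5 against control. With it FTL was called in double knockdown against siELOVL5 (adjusted p = 0.0119) and FTH1 in double knockdown against control (0.00931).

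Differences that were not called changed sign as follows. In double knockdown against siELOVL2, HMOX1 was 0.019 with library weights and -0.34 to 0.13 with 1 library left out. In the same order of settings HMOX2 was 0.0035 and -0.080 to 0.10, POR -0.0068 and -0.045 to 0.093, and with 1 library left out BLVRB was -0.065 to 0.28 and FTH1 -0.017 to 0.091. In double knockdown against siELOVL5, HMOX2 was -0.043 with library weights, -0.030 with TMM scaling and -0.061 to 0.062 with 1 library left out, and BLVRB -0.052 to 0.29. In double knockdown against control, BLVRA was -0.0087 with library weights and -0.069 to 0.15 with 1 library left out. In siELOVL5 against control, POR was -0.021 to 0.11 and FTH1 -0.077 to 0.023 with 1 library left out. Adding the ferritin pseudogene rows could change no value, since they were at 0 in every library. Depth limits genes near 0, such as HEPH and SLC40A1, and none of the 9 members.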
